A study of Mus musculus with 6 samples.

Results

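The wild type back-skin epidermis is described here by its own expression levels, from the 3 wild type arrays of a series of 6. The mice were females of 9.5 weeks on a C57BL6/CBA strain background, and the samples were keratinocytes of the back-skin epidermis that had not been divided into subsets. The labels name the wild type samples biological replicates 1, 2 and 3, say that RNA was extracted after fluorescence-activated sorting, and do not give the gate. The other 3 arrays, from mice with the K14ΔNLef1 transgene, entered no value below. A gene's value on an array was the mean log2 intensity of all rows of the table that the platform annotation gives to that gene alone. Of 11281 genes so measured, the 9818 with 3 or more rows were ranked by their mean over the 3 arrays, and 1463 with fewer rows are named only with their number of rows.

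The epidermis is a stratified epithelium in which basal keratinocytes, attached to the basement membrane, divide and send daughters upward through the spinous and granular layers to the dead, cornified surface. The layers differ in their keratins, adhesion proteins and barrier lipids. Hair follicles and sebaceous glands are continuous with it, and Langerhans cells, resident T cells, melanocytes and Merkel cells live among the keratinocytes.

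Each gene was read by 3 to 99 rows of the exon array, with a median of 9. Rows of a gene differ in how well they hybridise, and the median SD among the rows of a gene was 1.24 on the log2 scale, so the order of genes is coarse and neighbours in rank cannot be separated. Levels are described in bands. A gene is called bright in the top 10% of ranked genes (982 genes, log2 of 9.37 or more). It is called near background at or below 6.65, the 75th percentile of 60 ranked genes of other tissues such as albumin, pancreatic enzymes, sperm protamines and the gastric proton pump (2890 genes, 29.4%). The bands have no natural edge: Slc12a2 at 9.37 was the last bright gene and l7Rn6, also at 9.37, the first below, and Slc39a14 and Pla2g6 lay on either side of the lower limit at 6.65. The deposited table holds no detection p here, so a gene near background cannot be told from an absent one. In these mixed cells, fewer cells of a type and less RNA per cell cannot be told apart. The Y-linked genes Eif2s3y and Jarid1d, which female mice lack, read 5.82 and 5.52, both below the limit, and Sry, also Y-linked, read 7.12 from 2 rows.

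Keratin genes of the basal and spinous layers stood at the top of the ranking. Krt14, the type I keratin of basal cells, ranked 1 with 12.94, 12.89 and 12.99 on replicates 1, 2 and 3. Its partner Krt5, the basal type II keratin, read 12.32, 12.47 and 12.42 at rank 5, and Krt10, the type I keratin that spinous cells switch to, read 12.64, 12.61 and 12.67 at rank 3. The 3 arrays lay within 0.15 of each other for each of these keratins. Krt15, a basal and follicle keratin, followed at rank 6 with a mean of 12.39 ± 0.08, and Krt77, a suprabasal type II keratin, closed the 30 highest genes at 11.73 ± 0.06 (SD, n = 3). Dsc3, a desmosomal cadherin of the lower layers, stood at rank 28 with 11.75 ± 0.04.

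The other genes among the 30 highest were mostly ones that many cell types express. B2m, the light chain of MHC class I, read 12.83, 12.82 and 12.83 at rank 2, with an SD of 0.01. Apoe, a lipid carrier that keratinocytes and macrophages secrete, read 12.38, 12.42 and 12.48 at rank 4. The arrays agree within 0.11 for Apoe and within 0.01 for B2m. The list also held Tmsb4x, which binds actin monomers, the elongation factors Eef2 and Eef1b2, the ribosomal proteins Rps9 and Rps3, the iron store Fth1, the respiratory subunit Cox4i1, the peroxidase Gpx1 and the proteasome subunit Psma6. Genes known for epithelia were S100a6, the annexins Anxa2 and Anxa8, the ion pump regulator Fxyd3 and the gene the platform names Clca2, a symbol whose use has changed. Serbp1, Dynlrb1, Itm2b, Hsp90b1, Ncl, Atp1b3, Hnrnph1 and Hnrnpul2 completed it. The widest of the 30 was Rps3, with 11.43, 12.34 and 12.22, lowest on replicate 1, and Anxa8 followed with 12.04, 11.30 and 12.11, lowest on replicate 2.

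The 50 bases before the start site are shown for bright keratin genes and bright housekeeping genes. They are printed 5′ to 3′ from RefSeq (GRCm38.p6) for 4 keratins and, beside them, for an elongation factor and a ribosomal protein of similar level, with the motif TATAAA in capitals where it starts 40 to 20 bases before the start site.
Krt14, chr11:100206031-100206080, minus strand: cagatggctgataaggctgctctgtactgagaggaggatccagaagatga
Krt5, chr15:101712906-101712955, minus strand: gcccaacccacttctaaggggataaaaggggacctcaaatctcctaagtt
Krt10, chr11:99389365-99389414, minus strand: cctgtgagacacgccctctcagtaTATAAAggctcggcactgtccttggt
Krt77, chr15:101869706-101869755, minus strand: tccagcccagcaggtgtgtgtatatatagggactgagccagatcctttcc
Eef1b2, chr1:63176781-63176830, plus strand: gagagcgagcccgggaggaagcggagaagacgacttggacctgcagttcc
Rps3, chr7:99483710-99483759, minus strand: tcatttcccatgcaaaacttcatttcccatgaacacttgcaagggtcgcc

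Krt10 alone of these 6 holds the motif there, starting 26 bases before the start site. Among promoters of the 9784 ranked genes with a symbol in the gene table that no other ranked gene shares, 7859 genes had 10143 promoter entries of 300 bases. The motif lay in this window on the forward strand in 2.02% of them, in 1.56% for bright genes, 1.08% for genes between the bands and 4.33% for genes near background. On either strand anywhere in the 300 bases, TATAAA occurred in 9.26% of all entries and in 8.38%, 6.75% and 15.2% of the same bands. CpG pairs also differed by level: the observed over expected ratio had a median of 0.810 in bright genes, 0.731 between the bands and 0.401 near background. The ratio was 0.286 for Krt14, 0.251 for Krt5, 0.154 for Krt10 and 0.169 for Krt77, against 0.963 for Eef1b2 and 0.963 for Rps3. Its median was 0.362 over 11 entries of bright basal genes, 0.247 over 9 of bright spinous genes, 0.995 over 14 of bright translation factors and 0.712 over 20 of bright proteasome genes. It was 0.340 over 4 entries of bright granular genes, 0.584 over 14 of bright epidermal transcription factors, 0.670 over 8 of bright junction genes and 0.765 over 20 of bright genes of oxidative phosphorylation. A match of letters is a description of the window and no evidence of a bound site.

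Basal keratinocyte markers were bright as a group. Of 21 ranked members 12 were bright (57.1%), none was near background, and the list median stood at the 96.6th percentile of all ranked genes. Trp63, the transcription factor that maintains stratified epithelia, read 11.40, 11.46 and 11.42, and Itga6, a subunit of the hemidesmosome integrin, read 11.35, 11.36 and 11.49. Neither gene put any array apart. Cav1 of caveolae, Postn, a secreted matrix protein that also stands in the fibroblast list, the integrin Itgb1, the hemidesmosome collagen Col17a1, the tetraspanin Cd9, the hyaluronan receptor Cd44 and the growth factor binder Igfbp3 were bright at 11.32 to 10.20. Below the bright limit were Itgb4, partner of Itga6, at 9.34 ± 0.03 over 39 rows, the plakin Dst at 9.09 ± 0.27 over 93 rows, Itga2, Lamb3, Itga3 and P-cadherin, Cdh3, at 8.21. The lowest members were the receptor Egfr with 7.49, 7.12 and 7.18 from 3 rows, and Syt8 with 7.21, 7.21 and 7.36. Dst had 9.06, 9.38 and 8.84, highest on replicate 2.

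Most spinous markers were bright too. Of 14 ranked members 9 were bright (64.3%), and the median stood at percentile 97.15. Besides Krt10 and Krt77 these were Dmkn, a secreted keratinocyte protein, at 11.54, the galectin Lgals7 at 11.08, the surface protein Ly6d at 10.98, Krt1, the partner of Krt10, with 10.68, 10.97 and 11.20, Lgals3 at 10.42, the serpin Serpinb5 at 10.28 and the surface protein Lypd3 at 9.61. Krt1 was lowest on replicate 1 and highest on replicate 3. The desmocollin Dsc1, Ptgs1, the receptor Notch3 and Them5 lay between the bands, at 8.46 to 7.70. Krt2, a late suprabasal keratin, read 5.81, 6.09 and 5.94 and was the only member near background. The 11 rows of Krt2 ran from 3.75 to 9.14, so some of its rows were well above the limit and others were among the dimmest. Fabp5, a fatty acid carrier of keratinocytes, was read by 1 row, at 6.52, 5.37 and 6.75.

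Granular and cornified markers were spread over all bands. Of 17 ranked members 4 were bright and 4 near background (23.5% each), against 10% and 29.4% over all ranked genes. The list median stood at the 38.7th percentile, below the middle of all genes. Scel, a protein of the cornified envelope, read 11.44, 11.47 and 11.60 over 29 rows. Calm4, a calmodulin-like protein of differentiating keratinocytes, read 11.09, 11.14 and 11.07 over 3 rows. These and the cathepsin Ctsl, at 10.52, and the junction protein Pof1b, at 10.08, were bright on every array. The envelope crosslinking enzyme Tgm1 read 6.56, 6.40 and 6.51, and Casp14, a protease of cornification, read 7.46, 7.08 and 7.21. Cdsn, an adhesion protein of corneodesmosomes, was at 6.96, the envelope protein Cnfn at 6.92 and the transglutaminase Tgm3 at 6.76, widest in the list with 7.23 on replicate 2 against 6.52 and 6.54. The lowest were the arginine deiminase Padi4 at 6.05 and Tchhl1 at 5.78. The envelope proteins best known in this layer had few rows: Lor, loricrin, had 2 rows with 7.54, 6.90 and 6.08, Ivl, involucrin, had 2 with a mean of 6.32, Rptn had 2 at 4.94, and 8 late envelope genes of the Lce1 family had 1 or 2 rows each. With genes of 1 or 2 rows ranked too, 12 members of the list were near background in place of 4.

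**Figure D1:**
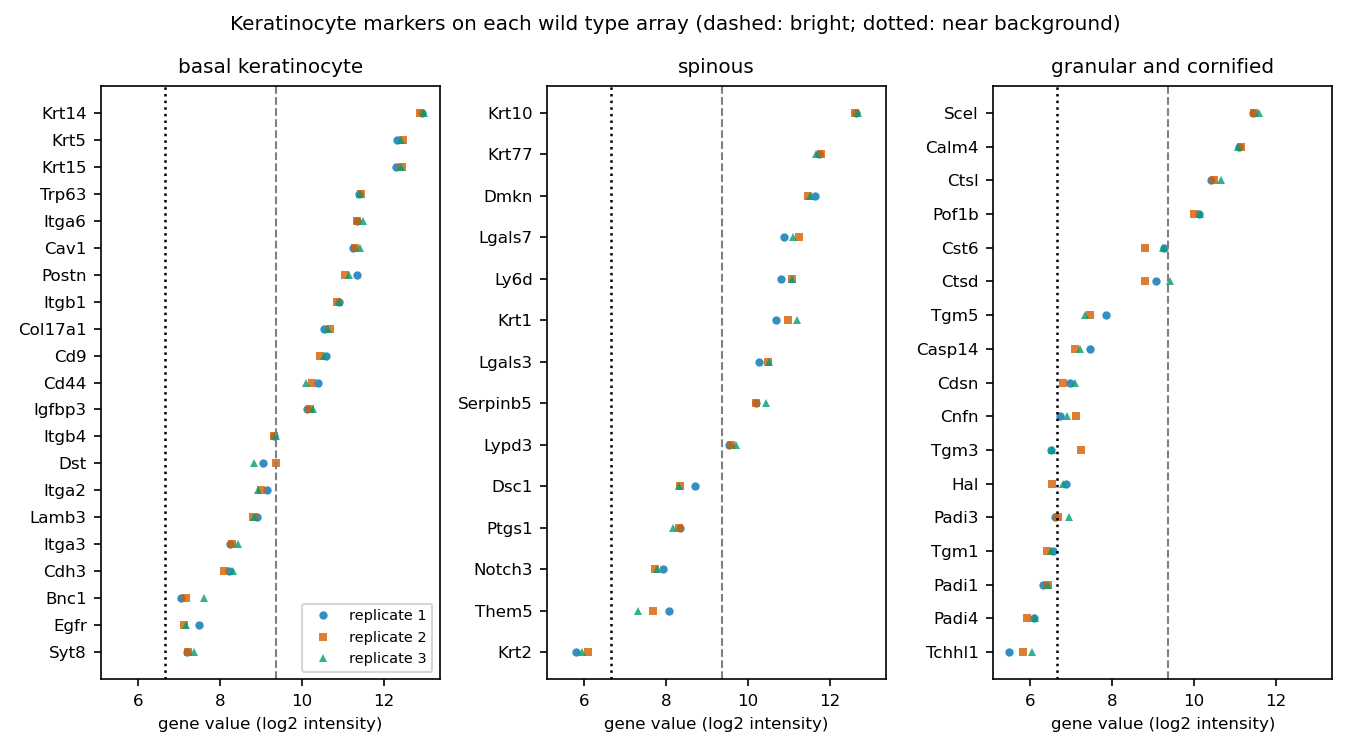
Gene value (x axis, log2 intensity) of every ranked marker of the basal, spinous and granular layers (y axis) on replicates 1, 2 and 3, with the bright limit of 9.37 dashed and the near-background limit of 6.65 dotted. The 3 arrays nearly coincide for bright genes, and most granular markers sit left of the bright limit while 12 of 21 basal and 9 of 14 spinous markers sit right of it.

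Cell junction genes were spread over the bands, with many bright. Of 30 ranked members 13 were bright (43.3%) and 5 near background (16.7%). Beside Dsc3 the highest were Perp, a desmosome-associated membrane protein, at 11.09 ± 0.17, E-cadherin, Cdh1, with 10.74, 10.75 and 10.70, and the desmoglein Dsg3 with 10.71, 10.75 and 10.69. For both cadherins the 3 arrays lay within 0.06 of each other. The claudin Cldn1 of epidermal tight junctions was at 10.44, the connexin Gja1 at 10.20, and the catenins Ctnna1, Ctnnd1 and Ctnnb1 at 10.18, 10.02 and 9.77. Plakoglobin, Jup, periplakin, Ppl, and plakophilin 1, Pkp1, which tie desmosomes to keratins, were at 10.16, 9.97 and 9.91. The lowest were Dsc2, a desmocollin, with 6.08, 5.48 and 5.46, and the connexin Gjb2 with 5.59, 5.57 and 6.70, the widest of the list and highest on replicate 3.

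Transcription factors of epidermis were measured across the range. Of 36 ranked members 10 were bright (27.8%) and 3 near background. Nfix, a nuclear factor I protein, read 11.36, 11.51 and 11.57, Gata3 read 11.40, 11.40 and 11.32, and Klf5 read 10.22, 10.21 and 10.29. No array stood apart for these, and with Trp63 they were the 4 highest. The AP-2 genes that the platform names Tcfap2b and Tcfap2a, Rora, Pou2f3, the chromatin organiser Satb1 and Grhl2 were bright at 9.80 to 9.42, and Klf4, which drives late differentiation, was just under the limit at 9.34. The 3 near background were Elf5 at 6.64, Elf3 at 6.19 and Prdm1 at 6.19. Ehf, an ETS factor, was the widest member, with 8.21, 7.07 and 7.56, lowest on replicate 2.

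Protease and stress genes held 2 bright members in each list. Over all ranked genes 10% were bright and 29.4% near background. Of 14 ranked proteases and inhibitors 2 were bright, the serpins Serpinb2 with 10.67, 10.83 and 10.74 and Serpinb8 at 10.06, and 4 were near background. Serpinb genes have closely similar copies, so their values are uncertain. The membrane protease St14, matriptase, was at 8.48, and the kallikrein Klk7, a protease of shedding, read 7.02, 7.26 and 8.06, highest on replicate 3. Of 10 ranked genes of stressed or wounded keratinocytes 6 were near background, among them Krt16 at 6.13, Krt6a at 6.03, the cytokine genes Il1a at 5.56 and Il1b at 6.12, and S100a8, a subunit of calprotectin, at 4.57, the lowest of the list. The 2 bright ones were Krt17 with 9.84, 9.80 and 9.78, a keratin that also marks the follicle, and the alarmin Il33 with 9.64, 9.41 and 9.83. Ptgs2, an inducible enzyme of prostaglandin synthesis, read 7.64, 7.10 and 6.49, highest on replicate 1.

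The upper follicle was the brightest of the follicle lists. Of 14 ranked members 6 were bright (42.9%) and 1, the Hedgehog target Gli1 at 6.51, was near background. Cbr2, a carbonyl reductase, read 10.66, 10.65 and 10.67, and Sostdc1, a secreted antagonist of Wnt and BMP ligands, read 10.29, 9.92 and 10.25. The beta defensin Defb6 read 10.46, 9.69 and 10.18. Sostdc1 and Defb6 were lowest on replicate 2. Gene 1600029D21Rik, which the gene table lists under another symbol, was at 9.98, and Krt17 and the aldehyde dehydrogenase Aldh3a1 were the other bright members, some of which are not limited to the follicle. Lrig1, a stem cell marker of this zone, was at 8.72 ± 0.23.

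Bulge stem cell markers lay between the bands. Of 26 ranked members 1, the Wnt pathway factor Tcf7l2 at 9.47, was bright, 3 were near background and 22 were between. Cd200 read 9.53, 8.66 and 9.02, Sox9 read 9.04, 8.81 and 8.68, and the follistatin gene Fst read 9.03, 8.77 and 8.71. All 3 were highest on replicate 1. Cd34, a surface marker of bulge cells in mice, was at 7.77 ± 0.12, and Lgr5, a marker of the lower bulge and germ, at 7.18 ± 0.44. Aqp1 at 5.76 and the Wnt inhibitor Wif1 at 5.74 were lowest, and the angiopoietin-like gene Angptl7 was widest with 6.42, 7.70 and 7.16.

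Hair shaft and inner root sheath genes were dim. Of 20 ranked members none was bright and 12 were near background (60.0%). The inner root sheath keratins Krt71, Krt27 and Krt25 read 6.40, 5.72 and 5.67, and the hair-type keratins Krt84 and Krt33a 6.37 and 5.98. The highest member was Krt32, a cuticle keratin, with 7.53, 8.12 and 8.23, lowest on replicate 1, followed by Krt82 at 7.77 and Selenbp1 at 7.37. Hoxc13, a regulator of shaft keratins, was widest, with 7.26, 6.09 and 6.52.

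Lipid genes of the barrier were mostly between the bands, where 60.6% of all ranked genes also lay. Their shares bright (7.69%) and near background (23.1%) were close to the 10% and 29.4% over all ranked genes. Of 26 ranked members 2 were bright, Abhd5, a coactivator of triglyceride breakdown, with 10.18, 9.98 and 10.18, and Psap, the precursor of saposins that aid lysosomal lipid breakdown, with 10.02, 10.03 and 10.06. The sphingomyelin synthase Sgms1 read 9.14, 9.37 and 9.52 and the fatty acid elongase Elovl1 9.04, 9.40 and 9.54, both lowest on replicate 1, whereas the lipid transporter Abca12 read 9.59, 9.38 and 8.99, highest on replicate 1. The 6 members near background included the lipoxygenase Alox12b of the barrier pathway at 5.96 and the desaturase Degs2 at 5.70. Sdr9c7, an enzyme of the same pathway, was widest with 6.01, 7.21 and 6.34 over 3 rows.

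Sebocyte genes included 1 bright and 8 near-background members of 21 ranked. The bright gene was the stearoyl-CoA desaturase Scd1, with 10.03, 9.80 and 10.03. Far1, Elovl6 and the lipid droplet gene that the platform names Adfp followed at 8.69, 8.16 and 8.13, and Fasn, fatty acid synthase, was at 8.01 ± 0.01 over 45 rows. Pparg, a regulator of sebocyte differentiation, was at 5.62, Elovl3 at 5.63, Cidea at 5.60 and the acyltransferase Mogat1 at 4.81. Scd3 was the widest, with 4.66, 4.56 and 6.13, highest on replicate 3, all below the limit. Of 12 ranked cholesterol synthesis genes none was near background, and the highest was squalene synthase, Fdft1, with 9.55, 9.21 and 9.77, the only bright one.

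Glutathione and xenobiotic genes lay in all bands, with a larger bright share than all ranked genes. Of 27 ranked members 8 were bright (29.6%) and 10 near background (37.0%). Gpx1 read 11.69, 11.88 and 11.78, Gstm5 10.41, 10.19 and 10.32, and the membrane transferase Mgst3 9.84, 9.97 and 9.76. The peroxiredoxin Prdx6 at 9.65, catalase, Cat, at 9.50 and epoxide hydrolase, Ephx1, at 9.82 were bright too. At the other end stood Nqo1 at 6.02 ± 0.03, the liver enzyme Cyp2e1 at 5.74 and the dioxin-induced Cyp1a1 at 5.18. The metallothioneins Mt2 and Mt1, with 2 rows each, read 11.61 and 11.44. Among 16 retinoid genes 2 were bright, the retinol dehydrogenase Adh7 with 9.40, 10.35 and 10.54 and the carrier Crabp2 with 9.67, 9.38 and 9.14, and the retinaldehyde dehydrogenase Aldh1a2 was lowest at 4.90. Adh7 was lowest on replicate 1 by nearly 1 log2 unit.

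**Figure D2:**
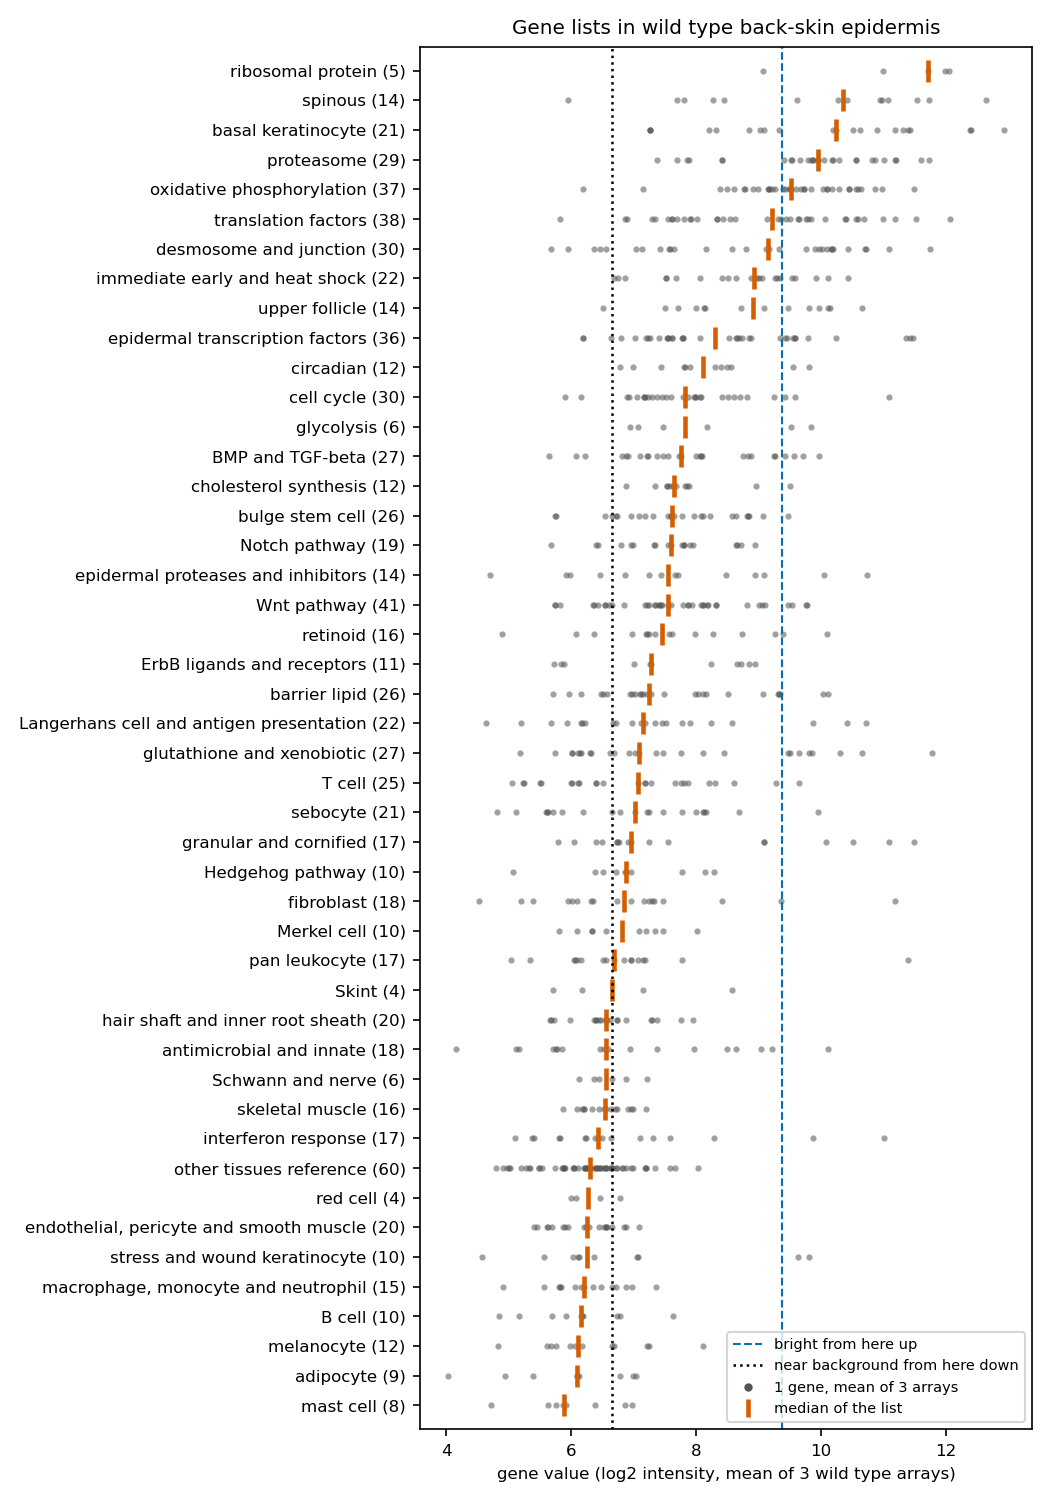
Gene value (x axis, log2 intensity, mean of 3 wild type arrays) of each ranked member (grey points) and the median (orange bar) of 46 gene lists of at least 4 ranked genes, ordered by median, with the bright limit of 9.37 dashed and the near-background limit of 6.65 dotted. Ribosomal, spinous, basal and proteasome lists lie at the top, and lists of blood vessel, fat, mast cell and melanocyte genes lie beside the list of other tissues.

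Markers of Langerhans cells and antigen presentation were spread over the bands, at levels that differed between the arrays. Langerhans cells are the dendritic cells of the epidermis and present antigen on MHC class II. Of 22 ranked members 3 were bright (13.6%) and 7 near background (31.8%), and the median stood at percentile 43.95. These shares were close to the 10% and 29.4% over all ranked genes. The bright ones, the decoy receptor Il1r2 at 10.73, the galectin Lgals3 at 10.42 and the adhesion protein Epcam at 9.88, are also made by keratinocytes. The defining lectin of these cells, Cd207, read 6.36, 5.99 and 6.17 over 7 rows, below the limit on every array. The class II chain H2-Aa read 8.49, 6.49 and 7.57, its neighbour H2-Eb1 read 8.58, 7.09 and 8.06, and the invariant chain Cd74 read 8.28, 6.61 and 7.50. All 3 genes were highest on replicate 1 and lowest on replicate 2. The adaptor Tyrobp had the same order with 8.72, 6.0 and 7.33, and each of its 5 rows was highest on replicate 1 and lowest on replicate 2. Cd52 broke the order, with 8.05, 8.73 and 6.54. The lowest members were the lectin Clec4a2 at 5.20 and the costimulator Cd86 at 4.63. Without replicate 1, 11 members were near background in place of 7.

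T cell markers also differed between the arrays. Mouse epidermis holds resident T cells that mostly carry the gamma delta receptor. Of 25 ranked members 1 was bright, the receptor chain Cd3g with 10.10, 9.44 and 9.44, and 12 were near background (48.0%). The chain Cd3e read 9.57, 9.11 and 9.19, and the surface protein Thy1 read 9.18, 7.99 and 8.66. These 3 genes were highest on replicate 1. The chain Cd3d was the widest of the list with 8.50, 7.05 and 7.46, and the surface protein Cd7 averaged 8.30. Cd4 and Cd8a, the coreceptors of alpha beta T cells, were at 6.12 and 6.11, and the receptor Klrk1 and the granzyme Gzma, at 5.22 and 5.05, were lowest.

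Of 17 ranked pan-leukocyte genes 1 was bright and 8 were near background (47.1%). The bright gene was Arhgdib, a gene not limited to leukocytes, with 11.53, 11.30 and 11.36. Ptprc, which encodes CD45, read 7.71, 6.45 and 7.30 over 35 rows. The actin bundler Lcp1 read 7.24, 6.03 and 6.80. Both were highest on replicate 1 and lowest on replicate 2, where both lay below the near-background limit. Vav1 at 5.34 and Arhgap15 at 5.04, signalling genes of blood cells, were lowest.

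Genes of other blood and skin cells were near the reference level. None of 15 ranked macrophage, monocyte and neutrophil genes was bright and 10 were near background (66.7%), with the complement chain C1qc highest at 7.36, Cd68 at 6.97 and the granule gene Ngp lowest at 4.91. The widest was the macrophage receptor that the platform names Emr1, with 6.14, 5.17 and 5.39. Among mast cell genes 6 of 8 and among B cell genes 7 of 10 were near background. The mast cell protease Cma1 was at 6.98 and the receptor Kit at 5.75, and the B cell adaptor Blnk was at 7.63 and the receptor Cr2 at 4.84.

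Melanocyte genes were low as well. Of 12 ranked members 7 were near background (58.3%), and the highest was Mitf, a regulator of pigment cells that other cells also express, at 8.12 ± 0.09. Dct, an enzyme of melanin synthesis, read 6.65, 7.37 and 7.64, lowest on replicate 1. Tyr, tyrosinase, read 4.65, 4.91 and 4.94 and was the lowest member. Among Merkel cell genes 5 of 10 were near background. The neuroendocrine factor Insm1 was at 8.01 and the simple-epithelium keratin Krt18 at 7.47, while Krt20, the keratin of Merkel cells, was at 6.10 ± 0.07.

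Dermal genes were mostly dim, with a few exceptions. Of 18 ranked fibroblast genes 1 was bright and 8 were near background (44.4%). The bright gene was Postn, also in the basal list, with 11.33, 11.06 and 11.16. Sparc, a matrix binder, read 9.04, 9.41 and 9.66, and Vim, the filament of mesenchyme and of Langerhans cells and melanocytes, read 8.77, 7.99 and 8.48. The fibrillar collagen genes Col1a1, Col1a2 and Col3a1 were at 7.32, 7.25 and 7.17, above the limit but under the median of all genes, 7.36. Fn1, fibronectin, was widest with 8.07, 7.08 and 6.75, highest on replicate 1. Dcn, decorin, was at 6.09, the receptor Pdgfra at 5.40, the protease Fap at 5.20 and Ogn, a small matrix proteoglycan, at 4.52. The part of other cells in these levels was not tested.

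Vessel, fat, muscle, nerve and red cell genes held no bright member. Of 20 ranked vessel genes 16 were near background (80.0%), the highest was Eng at 7.09, and Pecam1 and Tek, genes of endothelial cells, were at 5.88 and 5.41. Acta2, the actin of smooth muscle, was widest with 5.38, 6.38 and 5.14. Near background were 6 of 9 fat cell genes, with the fatty acid carrier Fabp4 at 4.03, 10 of 16 skeletal muscle genes, 3 of 6 nerve genes and 3 of 4 red cell genes. For comparison, 45 of the 60 reference genes were near background by construction, their median was 6.30 and the highest of them was the protamine Prm1 at 8.04, so a dim gene of these lists cannot be told from a gene of another tissue.

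Cell cycle genes lay in the middle. Of 30 ranked members 3 were bright (10%), the same share as over all ranked genes, and 2 were near background (6.67%). Ccnd2, a cyclin of early G1, read 11.11, 11.11 and 11.06, the replication helicase subunit Mcm6 read 9.27, 9.73 and 9.77, and Rrm1, a subunit of ribonucleotide reductase, averaged 9.43. The cyclin Ccnd1 followed at 9.26, the topoisomerase Top2a read 8.54, 9.17 and 8.75, and the kinase that the platform names Cdc2a was at 8.07. The checkpoint kinase Bub1 at 6.16 and the cyclin Ccne1 at 5.90 were lowest. Bub1b, another checkpoint gene, was widest with 6.54, 7.44 and 6.70, and 16 of the 30 members were highest on replicate 2, against 2601 of 9818 over all ranked genes.

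Immediate early and heat shock genes were bright or intermediate and none was near background. These genes respond within minutes to growth signals and stress. Of 22 ranked members 5 were bright (22.7%), and the median stood at percentile 84.1. The phosphatase Dusp1 read 10.88, 10.31 and 10.12, and the zinc finger factor Egr1 read 10.53, 10.16 and 9.69. Both were highest on replicate 1 and lowest on replicate 3. Egr2, the chaperone gene Dnajb1 and Myc were bright at 9.93, 9.58 and 9.54. Atf3, a stress-induced factor, read 10.70, 9.09 and 8.0, the widest of the list, and the nuclear receptor Nr4a1 read 8.69, 7.02 and 6.88. Fos read 9.34, 9.46 and 8.14, lowest on replicate 3. Klf10, Gadd45b, Fosl1 and Ier2 were lower, with Fosl1 at 6.75 and Ier2 at 6.68 the lowest. Without replicate 3, 8 members were bright in place of 5.

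Clock genes were all above the near-background limit. Of 12 ranked members 2 were bright, the repressor Nr1d2 with 9.75, 9.83 and 9.86 and the output factor Dbp with 9.41, 9.44 and 9.82. Tef and Clock were at 8.56 and 8.50. Cry1, a repressor of the clock, read 6.91, 7.90 and 7.51, whereas Arntl, the activator it represses, read 7.52, 6.54 and 6.90. Replicate 1 was lowest for Cry1 and highest for Arntl. Per2, another repressor, read 7.31, 8.23 and 7.93. Arntl at 6.99 and Npas2 at 6.78 were the lowest members.

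Interferon-response genes were low. Of 17 ranked members 2 were bright and 11 near background (64.7%). The bright ones, Psmb9 at 11.02 and Psmb8 at 9.88, are subunits of the immunoproteasome. The RNA sensor Ifih1 was at 8.29 and the signal factor Stat2 at 7.58. The chemokine Cxcl10 was widest with 7.57, 6.02 and 6.35, highest on replicate 1, and the antiviral gene Mx2 was lowest at 5.10. Antimicrobial and innate genes held 1 bright member of 18, the defensin Defb6, and 10 near background (55.6%). Il1rn, the interleukin 1 receptor antagonist, was at 9.22, Il34, a growth factor for Langerhans cells, read 9.17, 8.64 and 9.31, and the chemokine Cxcl14 was at 8.64. Of the Toll-like receptors Tlr3 stood at 7.97 and Tlr4 was the lowest member at 4.16.

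Signalling pathways had many members between the bands, where 60.6% of all ranked genes lay. Of 41 ranked Wnt genes 4 were bright (9.76%) and 9 near background (22.0%). The kinase Gsk3b read 9.91, 9.76 and 9.68, beta-catenin, Ctnnb1, read 9.73, 9.84 and 9.75, and the ligand carrier that the platform names Gpr177 averaged 9.53. With Tcf7l2 these were the bright Wnt genes. The target Axin2 was at 9.06 ± 0.06 and the receptor Fzd6 at 9.11. Among ligands Wnt4 at 8.17, Wnt3 at 8.11 and Wnt10b at 7.87 were highest of those with 3 or more rows. The secreted inhibitors Sfrp4 and Wif1, at 5.75 and 5.74, were the lowest members.

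Lef1, the factor whose truncated form the study's transgene carries, was near background in wild type by its mean. It read 5.81, 7.02 and 6.26, a mean of 6.36 at rank 7639, and was the widest Wnt gene. Its value on replicate 2 was above the near-background limit. Of its 13 rows 11 were highest on replicate 2. The means of these rows ran from 2.80 to 9.04, so some rows were well above the limit and others far below it. The factors Tcf7 and Tcf7l2 of the same family were at 7.87 and 9.47.

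Notch genes held no bright member. Of 19 ranked genes 3 were near background (15.8%), and the protease Adam10, the receptor Notch1 and the ligands Jag1 and Jag2 were highest at 8.94, 8.72, 8.66 and 8.64. The target Hey2 was lowest at 5.68, and the glycosyltransferase Lfng was widest with 7.29, 7.53 and 7.87. Of 27 ranked BMP and TGF-beta genes 4 were bright (14.8%) and 3 near background (11.1%). The receptors Bmpr2 and Bmpr1a read 10.07, 9.92 and 9.95, and 9.59, 9.55 and 9.59, and the ligand Bmp4 read 9.85, 9.11 and 9.34. The signal factor Smad2 was bright at 9.72 ± 0.35, and the ligands Tgfb3 at 6.08 and Bmp5 at 5.64 were lowest.

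Hedgehog and ErbB genes also had no bright member. The Hedgehog coreceptor Cdon was at 8.28 and the receptor and target Ptch1 read 8.06, 7.80 and 8.59. The ligand Shh was at 6.88, and 3 of 10 members were near background, with Hhip, a Hedgehog binder, lowest at 5.06. Among ErbB genes the receptors Erbb3 and Erbb2 were at 8.94 and 8.67 and the inhibitor Errfi1 at 8.86. The ligand Epgn, epigen, was widest with 8.65, 8.50 and 7.61, lowest on replicate 3. The ligands Btc, Egf and Ereg, at 5.89, 5.85 and 5.72, were the 3 of 11 members near background. In both lists the share near background was close to the 29.4% over all ranked genes.

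Genes that most cells need were often bright. Of 29 ranked proteasome genes 23 were bright (79.3%) and none near background. Psma6 read 11.79, 11.68 and 11.73, and the lowest, the assembly factor Psmd9, read 7.42, 7.61 and 7.09. Of 37 ranked genes of oxidative phosphorylation 23 were bright (62.2%), the highest was Cox6b1 at 11.50, and the only member near background was Atp5s at 6.20. Of 38 translation factors 17 were bright (44.7%), from Eef1b2 at 12.06 to Eif3b at 9.44, and the only one near background was the Y-linked Eif2s3y. Its X-linked copy Eif2s3x read 10.66, 10.62 and 10.80. Only 5 of 18 ribosomal protein genes had 3 or more rows and 4 of these were bright. For glycolysis, Pfkp at 9.84 and the glucose carrier Slc2a1 with 9.84, 9.10 and 9.61 were bright among 6 ranked genes, and the hexokinase Hk2 was lowest at 6.94.

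The 3 arrays resembled each other closely over all genes. The median intensity of the rows was 196.4, 190.2 and 199.8 on replicates 1, 2 and 3. Across the 9818 ranked genes, which are not independent replicates, Pearson's r between arrays was 0.970, 0.974 and 0.974 for replicates 1 and 2, 1 and 3, and 2 and 3. The top 10% of genes was shared by 88.3% to 89.3% between any pair. The median SD of a gene over the 3 arrays was 0.160, and it was 0.115 for bright genes, 0.166 between the bands and 0.169 near background. The 95th percentile of the SD was 0.284, 0.438 and 0.516 in the same bands. Of all ranked genes 298 (3.04%) spanned at least 1 on the log2 scale over the 3 arrays, of which 4 were bright, 157 between the bands and 137 near background.

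Arrays differed in which lists stood high. The Langerhans list averaged 7.67, 7.06 and 7.16 on replicates 1, 2 and 3, and 16 of its 22 ranked members were highest on replicate 1. The T cell list averaged 7.20, 6.76 and 6.91, with 16 of 25 members highest on replicate 1, and the pan-leukocyte list averaged 7.03, 6.65 and 6.76, with 10 of 17. Over all ranked genes 3304 of 9818 were highest on replicate 1. All genes together averaged 7.48, 7.43 and 7.50, a smaller difference than that of these lists. The immediate early list averaged 8.83, 8.63 and 8.47, and the interferon list 7.04, 6.76 and 6.88. Lists lowest on replicate 1 included the epidermal protease list, with 7.55, 7.60 and 7.85, the circadian list, with 8.01, 8.22 and 8.24, and the melanocyte list, with 6.22, 6.34 and 6.45. Spinous markers averaged 9.80, 9.83 and 9.82, and the basal list differed from its mean by at most 0.02. The part of leukocyte content in the differences between arrays was not tested.

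**Figure D3:**
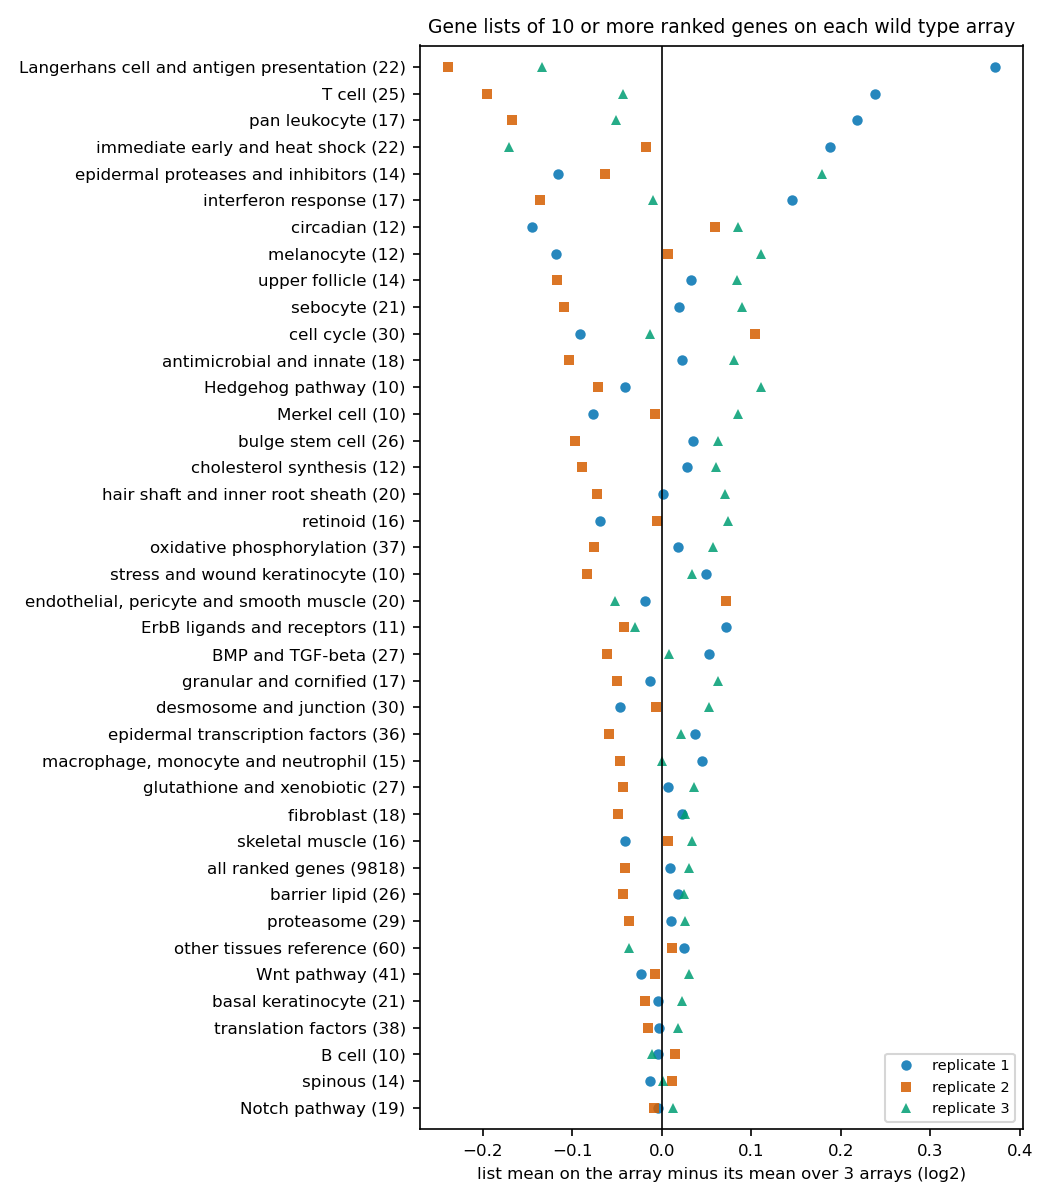
Mean of each gene list on an array minus its mean over the 3 arrays (x axis, log2) for all lists of 10 or more ranked genes (y axis, number in brackets) and all ranked genes, with a symbol for each replicate. The Langerhans, T cell and pan-leukocyte lists are widest, at 0.37, 0.24 and 0.22 above their means on replicate 1, and basal and spinous lists move by 0.02 or less.

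Replicate 2 was most often the low array among wide genes. Of the 298 genes spanning at least 1, 175 were lowest on replicate 2, 66 on replicate 1 and 57 on replicate 3. Over all ranked genes 4081 of 9818 were lowest on replicate 2. Among bright genes the 4 wide ones were Baiap2l1, an adaptor between membrane and actin, with 11.11, 9.14 and 10.92, Dbi, an acyl-CoA binder, with 10.79, 11.79 and 11.93, Adh7, described above, and 1500003O03Rik with 9.97, 8.93 and 9.68. Of the 19 rows of Baiap2l1 17 were lowest on replicate 2.

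The 20 widest genes at or above the median level spanned 1.40 to 2.70. Of these 13 were highest on replicate 1 and 11 lowest on replicate 2. Beside Atf3, Nr4a1, Cd52, Cd3d and the antigen presentation genes H2-Aa, H2-Eb1 and Cd74, they included the insulin-degrading enzyme Ide, with 9.71, 8.29 and 9.39 over 26 rows, and the deacetylase Aadac, with 8.31, 6.87 and 7.93. Genes lowest on replicate 1 were Serpinb7, with 8.02, 9.34 and 9.49, the metalloprotease Adam8, with 6.49, 7.69 and 7.98, Mettl1, with 7.25, 8.83 and 8.32, and 6330409N04Rik, with 7.94, 9.60 and 8.94. For Adam8 19 of 21 rows and for Serpinb7 9 of 9 rows were lowest there. The others were the transporter Slc38a6, high on replicate 2 with 9.14 against 7.50 and 7.22, 3110009E18Rik, low on replicate 3 at 7.05, and Baiap2l1, Kcnrg, N6amt2, Lrrn3 and Ssbp1, all lowest on replicate 2.

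The widest genes of all were members of the Skint family. Skint genes encode membrane proteins of the immunoglobulin superfamily in epidermis and thymus, and the first known of them, Skint1, is needed for the T cells of mouse epidermis to develop. Skint9 read 3.39, 8.72 and 9.35, a range of 5.97, and each of its 9 rows was lowest on replicate 1. Skint4 read 3.97, 7.26 and 7.28 with all 11 rows lowest on replicate 1, and Skint3, with 2 rows, read 3.83, 8.81 and 8.27. Replicate 1 was low for all 3 genes while replicates 2 and 3 were close to each other. Other members did not follow: Skint10 read 8.86, 8.35 and 8.51, and Skint2 read 5.57, 5.85 and 5.72. In the RefSeq gene table Skint4, Skint3 and Skint9 follow each other on chromosome 4, with Skint2 and Skint10 next. Skint genes have near-identical copies, so the split of signal among them is uncertain. These genes were singled out after their values were seen.

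**Figure D4:**
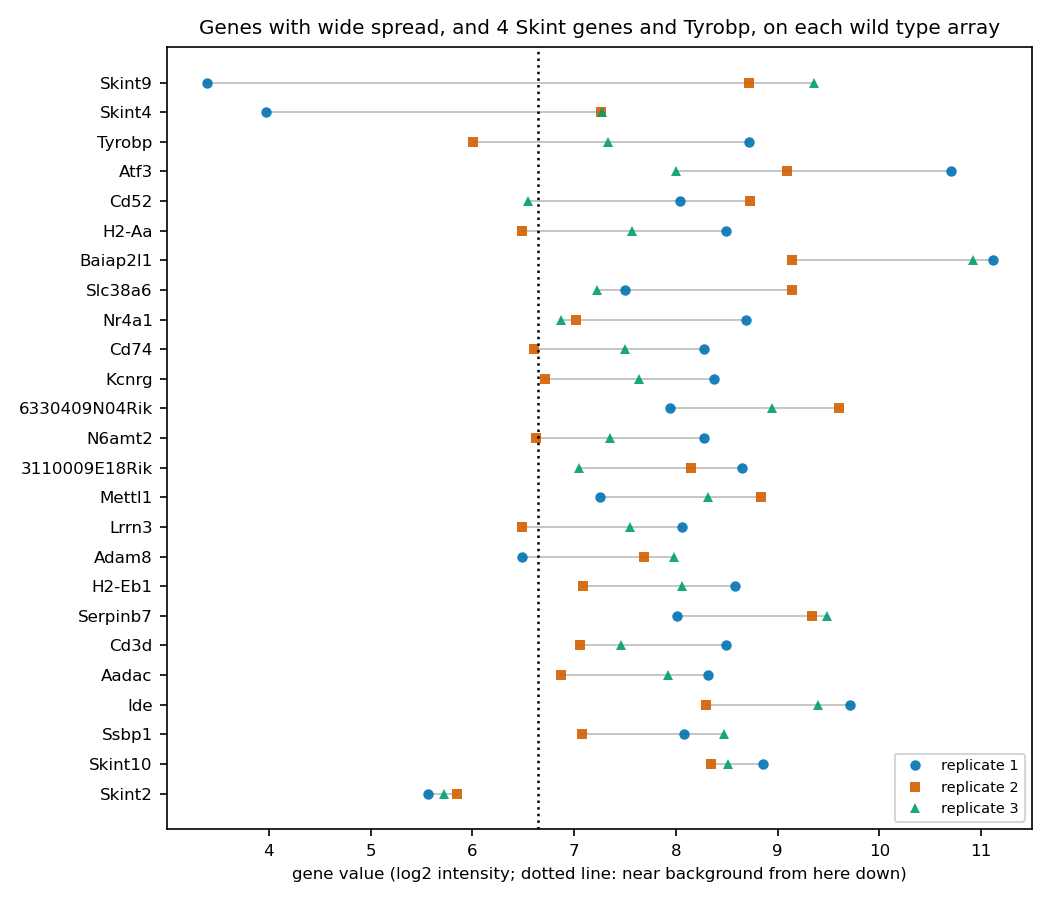
Gene value (x axis, log2 intensity) on replicates 1, 2 and 3 of the 20 widest genes at or above the median level, with Tyrobp and 4 Skint genes added (y axis, ordered by range), and the near-background limit of 6.65 dotted. Skint9 and Skint4 lie near the left edge on replicate 1 alone, and Tyrobp, H2-Aa, Cd74 and Cd3d run from replicate 2 at the low end to replicate 1 at the high end.

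Some genes with wide spread were dim. Sycp1, a meiosis gene that stands in the reference list, read 6.0, 5.56 and 3.17, all under the limit, and 11 of its 14 rows were lowest on replicate 3. Wide genes also lay beside each other more often than all genes did. Of 237 wide genes with a ranked neighbour in that order of genes, 28 had a neighbour that also spanned at least 1 (11.8%), against 328 of 7638 (4.29%) over all ranked genes. They formed 14 adjacent pairs, of which 8 were lowest on the same array and 5 had the same order of arrays. Of all 298 wide genes 175 were lowest on replicate 2, so unrelated wide genes would often share their lowest array. Whether adjacent pairs shared it more often was not tested. The pairs included the class II genes H2-Aa and H2-Eb1, the receptor genes Klrd1 and Klrk1, and Serpinb11 and Serpinb7. This count was added after the wide genes had been seen, and neighbouring copies of a gene family can share probes. Bright genes had a bright neighbour in 16.3% of cases against 13.2% for all. The longest runs of bright genes held 3 genes each. The run Il1r2, Il1r1 and Il1rl2 on chromosome 1 is of interleukin 1 family receptors. The others were Eif3g, Dnmt1 and S1pr2 on chromosome 9, and Slk, Col17a1 and Sfr1 on chromosome 19.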

How the data were processed

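Total RNA of 3 wild type samples was measured on mouse exon arrays. The deposited values are linear intensities, made with RMA in Affymetrix Power Tools against mm9 per the submitters' processing notes. Neither their versions nor any filter on probe sets is given in the sources used here. On the log2 scale all values (100.0%) had 5 decimals within 2e-08. RMA is normally run over all arrays of a study together, and whether the transgenic arrays shared that step is not stated. RMA can compress low values, so differences near background may be understated, which was not tested. The median SD over arrays was 0.169 near background against 0.115 for bright genes.

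Of 114330 rows of the table, 109751 had exactly 1 symbol in the platform annotation, 834 had several and 3745 had none listed. Rows with 1 symbol were averaged per gene after log2, with Python 3.11.15, pandas 2.3.3 and numpy 2.4.6, and plots used matplotlib 3.10.9. The averaging, ranking and bands were tested on simulated data. Levels, means and SDs describe 1 group of 3 samples, so no test was made. The number of arrays limits the precision. The labels describe biological replicates, and the SD measures the spread between them.

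The 47 gene lists, and the wild type samples as a subject, were chosen with earlier results of these data known. They hold 1216 names, of which 249 were not measured and 838 genes were ranked. A list name Cdo, which matched another gene, was changed to Cdon after the values were seen. Named by rule are the 30 highest genes, the 20 widest at or above the median level, and in each list the 4 highest, 2 lowest and 1 widest members, and Lef1. Further members are named for their role, after their values were seen. Symbols are the platform's, and 11255 of 11281 were found in the RefSeq gene table, 1237 of them through a synonym. Alternatives changed how rows are summarised, how many rows a gene needs, normalization, the limits, and the replicates used.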

Additional observations from a re-analysis of the deposited data

How the results depend on the processing

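No paired analysis was possible because 1 group was described and no comparison was made. Shifting the 3 arrays to the same median, quantile normalization and updated symbols changed none of the counts the report leads with by over 1.5 times, and the counts of bright basal, spinous, junction, upper follicle and granular genes stayed within 1.5 times under all alternatives run. The median SD over genes, 0.160, ran from 0.126 without replicate 2 to 0.213 with the median of rows. The levels depend more on the rows used: with the median of rows 154 of 325 named levels moved by more than their SD over arrays. With the brighter part of a gene's rows 298 did. Keeping the brighter rows can only raise a level, so that count was largely set in advance. The array gives no depth, and near background the order of genes has no meaning. The causes of the changes below were not tested.

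The count of genes spanning at least 1, 298, became 720 with the median of rows, 530 with genes of 1 or more rows, 159 with genes of 6 or more, 45 for a span of 1.5, and 108 to 161 without each replicate in turn. The count near background, 2890, became 1774 with 6 or more rows and 4446 with the 90th percentile of the reference list as the limit. It became 1122 with Eif2s3y, the highest Y-linked gene of 3 or more rows, as the limit. The Y-linked gene Sry, with 2 rows, read higher, at 7.12, and was not used as a limit.

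Bright counts in the top 5% in place of 10% became 4 for transcription factors, 3 for glutathione, 2 for immediate early, 13 for oxidative phosphorylation, 15 for proteasome and 10 for translation genes. With the top 20%, 12 immediate early genes were bright, and 5 to 8 were bright without each replicate in turn, with 8 without replicate 3. Glutathione genes had 5 bright with the brighter part of the rows and 13 with 1 or more rows. With 6 or more rows, 3 immediate early and 12 oxidative phosphorylation genes were bright.

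Near-background counts with 1 or more rows became 12 for granular genes. With 6 or more rows they became 4 for sebocyte, 5 for interferon and 2 for antimicrobial genes. Without each replicate in turn, 7 to 11 Langerhans genes were near background, with 11 without replicate 1. With the 50th percentile as the limit there were 2 granular, 3 barrier lipid, 4 hair, 5 muscle and 7 interferon genes, and with the 90th, 9 granular, 12 barrier lipid, 12 Langerhans and 15 pan-leukocyte genes. With the Y-linked limit there were 1 granular, 1 barrier lipid, 2 glutathione, 3 hair, 3 Langerhans, 5 T cell, 2 pan-leukocyte, 4 macrophage, 4 melanocyte, 3 fibroblast, 5 vessel, 0 muscle, 4 interferon and 6 antimicrobial genes.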
